A study of Bos taurus with 9 samples.

Results

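The cytokine genes described here were IL1A, IL1B, IL6, IL15, IL18, IL33, LIF, CSF1, CSF2 and CSF3, measured in co-cultured stromal and epithelial cells of the bovine endometrium. They were taken by symbol from the array's annotation: 15 probe sets carried 1 of these 10 symbols alone, of 24016 probe sets tested and 9155 named genes. The arrays fell into 3 groups of 3. The first was exposed for 6 h to lysophosphatidic acid (LPA, 1e-06 M of the 1-oleoyl form, a signalling lipid) plus 1000 antiviral units of interferon tau (IFNt; the volume is not stated), the second to LPA alone for the same time, and the third to phosphate-buffered saline (Control). Cells of all groups came from slaughtered Holstein/Polish Black and White cows (75% and 25%) on days 2 to 5 of the oestrous cycle, were seeded at 3 stromal cells to 1 epithelial cell in medium with 10% fetal calf serum, and were moved to serum-free medium with albumin before exposure. Each array held RNA pooled from 3 cows, and the labels give 9 cows for the 9 pools, so pools share cows and p-values measure the spread between pools that are not all independent. IFNt without LPA was not analysed here, so every comparison that involves IFNt also has LPA in the IFNt-treated arm. No age of the cows was stated in the labels.

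Cytokines carry signals between uterine cells and immune cells. IL1A and IL1B encode interleukin-1 alpha and beta, which act on the receptor IL1R1 with its partner IL1RAP, and IL18 and IL33 encode further members of the interleukin-1 family. IL6 and LIF encode cytokines that signal through the shared chain gp130. IL15 encodes a growth factor of natural killer and memory T cells, and CSF1, CSF2 and CSF3 encode the factors that promote macrophages, granulocytes with macrophages, and neutrophils. In mice LIF is required for implantation, and IL15 is needed for uterine natural killer cells. Interferon tau is the signal with which the ruminant embryo announces itself to the uterus.

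The values are log2 expression values from RMA, in which a difference of 1 is a doubling, and array medians lay between 4.29 and 4.37. A level was called low where it did not exceed 2.80, the top reading of the array's 3 bacterial trp control probe sets, whose RNA cattle cells lack. Of the 15 cytokine probe sets, 12 had a group mean above that level and were above it on all 9 arrays, while 3 never exceeded it. In the check of cell type by the brightest probe set of each gene, 16 of 16 epithelial and 13 of 13 stromal marker genes lay above the trp level on every array, as did 4 of 19 leukocyte and 0 of 10 endothelial marker genes.

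In LPA+IFNt against Control, 3 of the 15 cytokine probe sets rose and 0 fell: IL15, IL18 and IL6. The share of all probe sets called in either direction was 5.34%, made up of 2.48% higher and 2.86% lower. In LPA+IFNt against LPA the same genes rose, again 3 of 15 with 0 lower, beside 6.54% of all probe sets, 2.56% higher and 3.98% lower. Both comparisons use the same LPA+IFNt arrays, so they are not independent of each other. In LPA against Control 0 of 15 were called by limma, beside 0.0708% of all probe sets, and 2 of 15 had an unadjusted p under 0.05, beside 8.3% of all probe sets. That count was 8 of 15 without LPA replicate 2 (13.1% of all probe sets), 7 with the replicate number as a block (12.9%), 6 with spike-in centring (7.06%), 4 without Control replicate 3 (8.81%) and 1 without LPA replicate 1 or 3 or Control replicate 1 or 2 (5.69% to 7.24%). The median log2 fold change of the 15 probe sets was 0.03, 0.02 and 0.09 in LPA+IFNt against Control, LPA+IFNt against LPA and LPA against Control, while the medians over all probe sets were 0.018, 0.0193 and 0.0023.

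**Figure D1:**
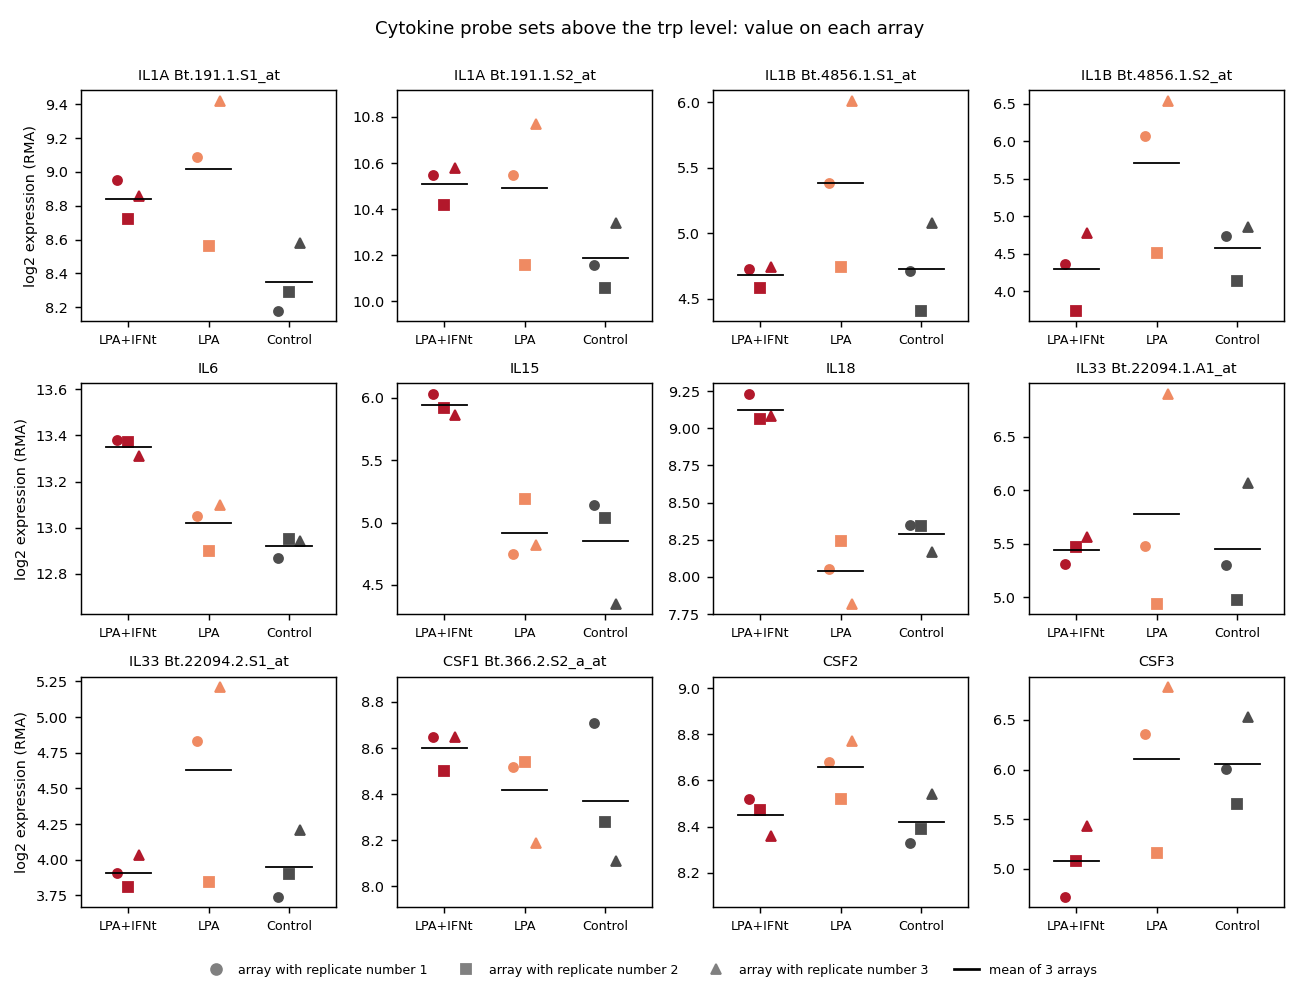
Log2 expression (RMA) of the 12 cytokine probe sets above the trp level on each array, for LPA+IFNt, LPA and Control, with marker shapes for replicate numbers and a bar at the mean of 3 arrays; each panel has its own y axis, which does not start at 0. IL6, IL15 and IL18 stand higher on all 3 LPA+IFNt arrays than on the other 6, and IL1B, IL33 and CSF3 spread widest over the LPA arrays.

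IL15 had log2 values of 6.03, 5.92 and 5.86 on the LPA+IFNt arrays, 4.75, 5.19 and 4.82 on the LPA arrays, and 5.14, 5.04 and 4.35 on the Control arrays. All 3 LPA+IFNt arrays lay above the other 6, while the LPA and Control arrays overlapped. Its level was 2.13-fold higher in LPA+IFNt than in Control (log2 fold change 1.09, SE 0.21, 95% interval 0.60 to 1.58, adjusted p = 0.0249) and 2.03-fold higher than in LPA (1.02, SE 0.21, adjusted p = 0.0303). LPA against Control gave 0.07 (95% interval -0.42 to 0.56, adjusted p = 1). The call against Control was lost without LPA+IFNt replicate 1 (adjusted p = 0.0842), replicate 2 (0.0766) or replicate 3 (0.0689), or without Control replicate 2 (0.0524), with log2 fold changes of 0.84 to 1.24 over all 9 omissions. The call against LPA was lost without any one of the LPA+IFNt arrays (adjusted p of 0.0981, 0.0876 and 0.0772 without replicates 1, 2 and 3), LPA replicate 1 (0.114) or LPA replicate 3 (0.0904). As these are pools of many cells, more cells of a type and more RNA per cell cannot be told apart.

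IL18, which encodes a cytokine that is made as an inactive precursor and raises interferon gamma production by lymphocytes, had log2 values of 9.23, 9.06 and 9.08 with LPA+IFNt, 8.05, 8.24 and 7.82 with LPA, and 8.35, 8.34 and 8.17 in Control. The LPA+IFNt arrays stood clear of both other groups, and the LPA arrays ran lower than the Control arrays with an overlap at LPA replicate 2. IL18 was 1.79-fold higher in LPA+IFNt than in Control (0.84 on the log2 scale, SE 0.11, 95% interval 0.59 to 1.09, adjusted p = 0.00399) and 2.13-fold higher than in LPA (1.09, SE 0.11, 95% interval 0.84 to 1.34, adjusted p = 0.000994). In LPA against Control it stood at -0.25 (95% interval -0.50 to 0.00, adjusted p = 0.607), with each LPA array below the Control array of the same replicate number, by -0.30, -0.10 and -0.35. Both IFNt calls held in all 18 alternatives tried.

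IL6, the gene of a cytokine of the acute phase response, had log2 values of 13.38, 13.37 and 13.31 with LPA+IFNt, 13.05, 12.90 and 13.10 with LPA, and 12.87, 12.95 and 12.94 in Control. The LPA+IFNt arrays lay above all others by a small margin, since the highest LPA array was at 13.10. The rise was 1.35-fold against Control (0.43 on the log2 scale, SE 0.05, 95% interval 0.30 to 0.56, adjusted p = 0.0038) and 1.26-fold against LPA (0.34, SE 0.05, 95% interval 0.21 to 0.47, adjusted p = 0.0111). The LPA against Control difference was 0.09 (95% interval -0.03 to 0.22, adjusted p = 0.763). The call against LPA was lost when arrays were centred on the spiked-in controls (0.36, adjusted p = 0.0775), and the call against Control was kept (adjusted p of 0.0249 at most over all 18 alternatives).

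**Figure D2:**
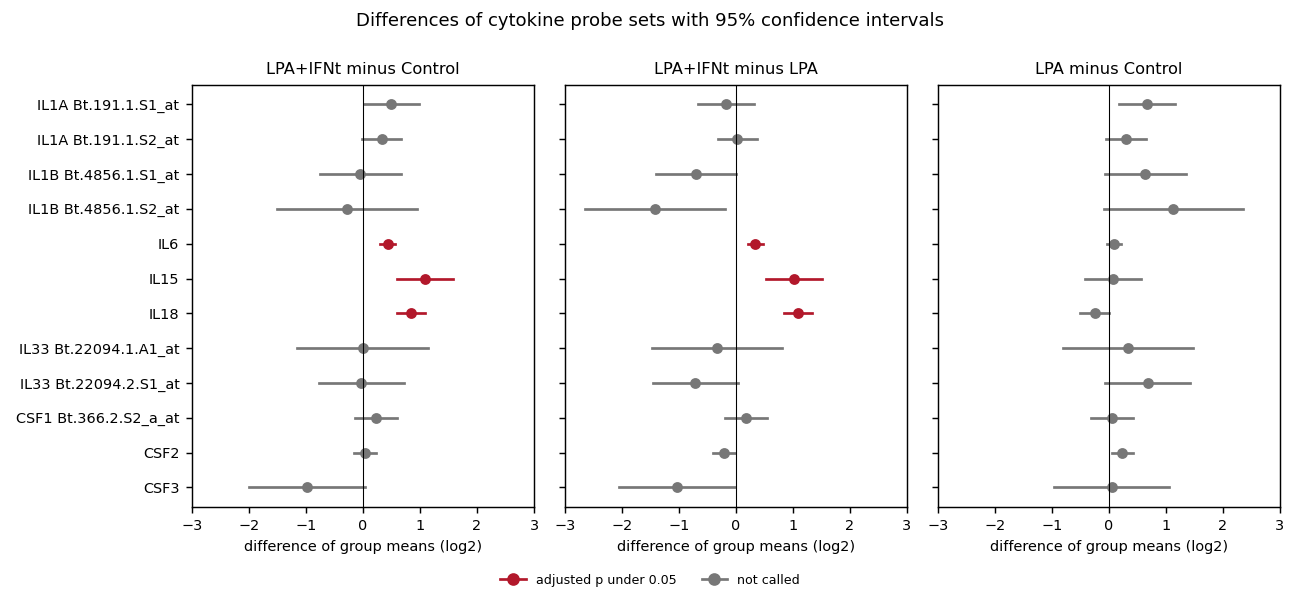
Differences of group means (log2) with 95% confidence intervals from limma for the 12 cytokine probe sets above the trp level, in LPA+IFNt minus Control, LPA+IFNt minus LPA and LPA minus Control. Red points are past an adjusted p of 0.05: IL6 (0.43 and 0.34), IL15 (1.09 and 1.02) and IL18 (0.84 and 1.09) in both panels with IFNt, and none in LPA minus Control.

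IL1A was read by 2 probe sets, and neither was called in any comparison. The probe set Bt.191.1.S1_at had log2 values of 8.95, 8.72 and 8.86 with LPA+IFNt, 9.09, 8.56 and 9.42 with LPA, and 8.18, 8.29 and 8.58 in Control. All LPA+IFNt arrays lay above the Control arrays, and LPA replicate 2 overlapped with Control replicate 3. Differences were 0.49 for LPA+IFNt against Control (95% interval 0.01 to 0.98, adjusted p = 0.292), -0.18 for LPA+IFNt against LPA (adjusted p = 0.673) and 0.67 for LPA against Control (95% interval 0.18 to 1.16, adjusted p = 0.424). The probe set Bt.191.1.S2_at had values of 10.42 to 10.58 with LPA+IFNt, 10.16 to 10.77 with LPA and 10.06 to 10.34 in Control, with differences of 0.33 (adjusted p = 0.332), 0.02 (0.938) and 0.30 (0.677) in the same comparisons. The LPA array exceeded the Control array of the same replicate number in all 3 numbers for both probe sets, by 0.91, 0.27 and 0.83 for Bt.191.1.S1_at.

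IL1B, which is separated from IL1A by 1 listed protein-coding gene in RefSeq's table for ARS-UCD2.0, was also read by 2 probe sets. Bt.4856.1.S2_at had log2 values of 4.36, 3.74 and 4.78 with LPA+IFNt, 6.07, 4.51 and 6.54 with LPA, and 4.74, 4.13 and 4.86 in Control. LPA replicates 1 and 3 were above all other arrays, and LPA replicate 2 lay within the range of both other groups. Differences were -0.29 in LPA+IFNt against Control (adjusted p = 0.766), -1.42 in LPA+IFNt against LPA (SE 0.52, 95% interval -2.64 to -0.19, adjusted p = 0.206) and 1.13 in LPA against Control (95% interval -0.09 to 2.35, adjusted p = 0.646). With the replicate number as a block, LPA+IFNt against LPA passed (-1.42, adjusted p = 0.0267), and the same-number differences were -1.72, -0.77 and -1.76. The other probe set, Bt.4856.1.S1_at, ran from 4.58 to 4.74 with LPA+IFNt, 4.74 to 6.01 with LPA and 4.41 to 5.08 in Control, with differences of -0.05 (adjusted p = 0.928), -0.70 (0.297) and 0.64 (0.657), and it was not called with the block (adjusted p = 0.0936 against LPA).

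IL33, whose product is released from damaged cells as an alarm signal, had 2 probe sets above the trp level and 1 below it. Bt.22094.2.S1_at had log2 values of 3.91, 3.81 and 4.03 with LPA+IFNt, 4.83, 3.84 and 5.21 with LPA, and 3.74, 3.90 and 4.21 in Control. Here too LPA replicates 1 and 3 were the highest of all arrays and LPA replicate 2 was among the lowest. Differences were -0.04 for LPA+IFNt against Control (adjusted p = 0.953), -0.71 for LPA+IFNt against LPA (0.31) and 0.68 for LPA against Control (0.656). Bt.22094.1.A1_at had 5.31, 5.47 and 5.56 with LPA+IFNt, 5.48, 4.94 and 6.90 with LPA, and 5.30, 4.97 and 6.07 in Control, and the groups overlapped in every comparison. For this probe set the 95% interval of the LPA against Control difference ran from -0.81 to 1.47, so with 3 arrays a group a change within those bounds could not be told from none.

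CSF3, the gene of granulocyte colony-stimulating factor, had log2 values of 4.72, 5.08 and 5.43 with LPA+IFNt, 6.36, 5.16 and 6.83 with LPA, and 6.01, 5.65 and 6.53 in Control. All LPA+IFNt arrays lay below all Control arrays, and LPA replicate 2 lay among the LPA+IFNt arrays. The difference was -0.99 in LPA+IFNt against Control (SE 0.43, 95% interval -2.0 to 0.03, adjusted p = 0.313), -1.04 in LPA+IFNt against LPA (adjusted p = 0.271) and 0.05 in LPA against Control (adjusted p = 1). Every LPA+IFNt array was below the Control array of the same number, by -1.29, -0.57 and -1.10, but the call was missed with the replicate block as well (adjusted p = 0.118).

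CSF2, the gene of granulocyte-macrophage colony-stimulating factor, had log2 values of 8.52, 8.47 and 8.36 with LPA+IFNt, 8.68, 8.52 and 8.77 with LPA, and 8.33, 8.39 and 8.54 in Control. The groups overlapped in all 3 comparisons. LPA against Control gave 0.24 (95% interval 0.05 to 0.43, adjusted p = 0.48), with same-number differences of 0.35, 0.13 and 0.23, and LPA+IFNt against LPA gave -0.21 (adjusted p = 0.243), with -0.16, -0.05 and -0.41. LPA+IFNt against Control gave 0.03 (95% interval -0.16 to 0.22, adjusted p = 0.826). CSF1, the macrophage growth factor gene, had 8.65, 8.50 and 8.65 with LPA+IFNt, 8.52, 8.54 and 8.19 with LPA, and 8.71, 8.28 and 8.11 in Control by probe set Bt.366.2.S2_a_at. Its groups overlapped, and the differences of 0.23, 0.18 and 0.05 in LPA+IFNt against Control, LPA+IFNt against LPA and LPA against Control had adjusted p of 0.507, 0.629 and 1.

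LIF was read by 1 probe set that stayed between 2.38 and 2.48 on all 9 arrays, under the trp level, so no change of this gene could be measured here. The same held for Bt.366.1.S1_a_at of CSF1, between 2.30 and 2.47, and for Bt.16383.1.A1_at of IL33, between 2.49 and 2.67. For CSF1 and IL33 the other probe sets of the gene lay well above that level, so the probe sets of 1 gene disagreed on whether it was detected. Among protein-coding genes, the RefSeq table lists LIF next to OSM, a related cytokine gene, and CSF2 next to IL3. OSM (1.58 to 1.66) and IL3 (2.36 to 2.50) were under the trp level on all arrays as well.

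Counted without regard to the test, 7 of the 15 probe sets had all 3 LPA+IFNt arrays apart from the 3 Control arrays, 6 higher and 1 lower, where 23.1% of all probe sets did, 10.2% higher and 12.8% lower. They were both probe sets of IL1A, those of IL6, IL15 and IL18, the lower CSF3, and LIF, whose values were all under the trp level. Against LPA, 3 of 15 lay apart beside 18.7% of all probe sets, and in LPA against Control 0 of 15 did beside 10% of all probe sets. By same-number differences, 5 of 15 probe sets were higher with LPA than in Control in all 3 numbers, beside 13% of all probe sets: both of IL1A, both of IL1B and that of CSF2. IL18 was lower in all 3, beside 14.2%.

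**Figure D3:**
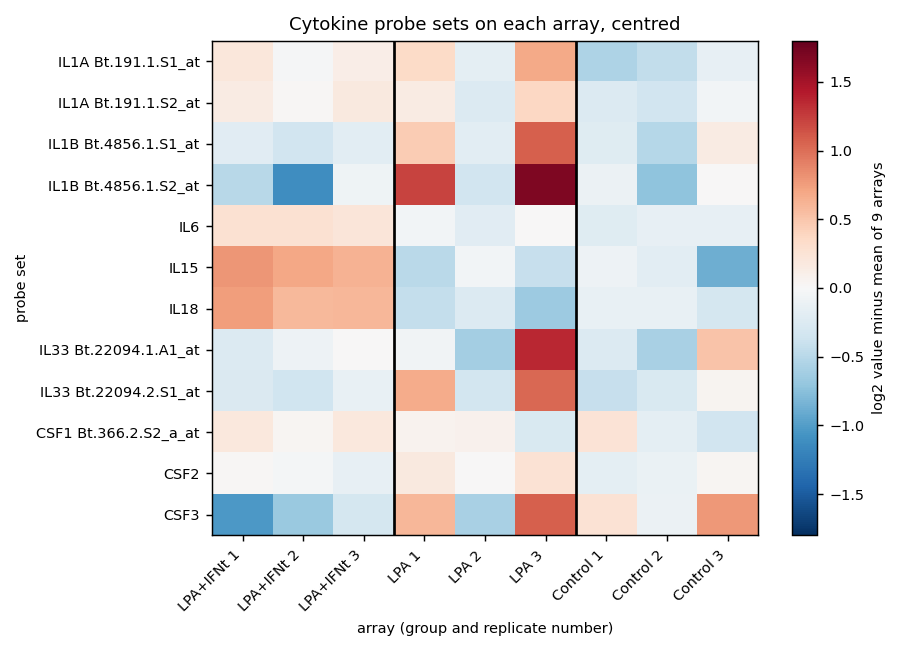
Log2 value of each of the 12 cytokine probe sets above the trp level on each array, minus the probe set's mean over 9 arrays (colour scale in log2 units), with LPA+IFNt, LPA and Control arrays from left to right. IL15 and IL18 are high on the 3 LPA+IFNt arrays, and IL1B, IL33 and CSF3 are high on LPA replicates 1 and 3 and low on LPA replicate 2, with the exception of IL33 Bt.22094.1.A1_at, which among the LPA arrays is high on replicate 3 alone.

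The cytokine genes differed widely in their spread between arrays of the same treatment. The residual SD was 0.72 for IL1B Bt.4856.1.S2_at, 0.67 for IL33 Bt.22094.1.A1_at and 0.60 for CSF3, at percentiles 98.8, 99.1 and 98.7 among probe sets within 0.5 of the same mean log2 level. IL1A Bt.191.1.S1_at had 0.29 (percentile 95.8). IL6 (0.07, percentile 43.4), CSF2 (0.11, percentile 34.5) and IL18 (0.14, percentile 59.6) lay in the middle of the distribution. Within the LPA group replicate 3 was the highest array for 9 of the 12 probe sets and replicate 2 the lowest for 9 of 12, and within Control replicate 3 was the highest for 8 of 12. Among the LPA+IFNt arrays replicate 2 was the highest for 0 of 12 and the lowest for 7 of 12.

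Several calls turned on LPA replicate 2. Without it, 7 of the 15 cytokine probe sets were called in LPA+IFNt against LPA in place of 3, beside 9.18% of all probe sets: IL6, IL15 and IL18 as higher, and IL1B Bt.4856.1.S2_at (-2.01, adjusted p = 0.0173), IL1B Bt.4856.1.S1_at (-1.01, 0.0483), IL33 Bt.22094.2.S1_at (-1.11, 0.00973) and CSF3 (-1.52, 0.0315) as lower. In LPA against Control its omission left 0 of 15 called by limma. The lowest adjusted p were then those of IL33 Bt.22094.2.S1_at (1.07, adjusted p = 0.0545), IL1A Bt.191.1.S1_at (0.90, 0.0643) and IL1B Bt.4856.1.S2_at (1.73, 0.0935).

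Some genes associated with leukocytes also varied among the LPA arrays, in different ways. S100A8, which encodes a subunit of calprotectin, an abundant protein of neutrophils that epithelia can also make, had log2 values of 6.90, 6.46 and 7.65 with LPA+IFNt, 8.57, 5.58 and 8.83 with LPA, and 7.54, 6.27 and 7.93 in Control, with replicate 2 the lowest in every group. PTPRC, the gene of the pan-leukocyte antigen CD45, had 3.41, 3.74 and 4.0 with LPA+IFNt, 4.42, 3.73 and 5.17 with LPA, and 3.68, 3.65 and 3.75 in Control by Bt.12196.1.S1_at. The other PTPRC probe sets, Bt.12196.2.A1_at and Bt.29715.1.S1_at, were under the trp level on all arrays. CD14, a monocyte receptor gene, ran from 6.30 to 6.70 with LPA+IFNt, from 6.80 to 7.66 with LPA and from 7.05 to 7.29 in Control (-0.74 against Control, adjusted p = 0.11). These values are from Bt.13789.1.A1_at, while the other CD14 probe set, Bt.4285.1.S1_at, was under the trp level on all arrays. By Bt.13789.1.A1_at the LPA arrays had replicate 2 as the lowest and replicate 3 as the highest, as for IL1B. LCP1, the gene of an actin-bundling protein of leukocytes, ran the other way, with 6.63, 6.84 and 6.31 with LPA, against 6.00, 5.92 and 6.08 in Control, and the macrophage gene CD68 had 3.58, 3.47 and 3.51 with LPA. S100A8 was on the list of processing enzymes and antagonists, and S100A8, PTPRC and CD14 were picked after their values were seen. Over the whole leukocyte list of 19 genes, 13 were under the trp level on all arrays, 4 (CD14, CD68, LCP1 and PTPRC) were above it on all, and the mean log2 level was 2.93 to 3.04 with LPA+IFNt, 2.96 to 3.08 with LPA and 2.88 to 2.95 in Control. Among those under that level on all arrays were the T-cell genes CD3E, CD2 and CD8A, the B-cell genes CD79A and MS4A1 and the myeloid gene ITGAM. A further T-cell gene, CD3D, exceeded it on 3 arrays by its brightest probe set, with a mean of 2.82 in LPA+IFNt. The part of leukocyte-associated genes in the cytokine values was not tested.

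**Figure D4:**
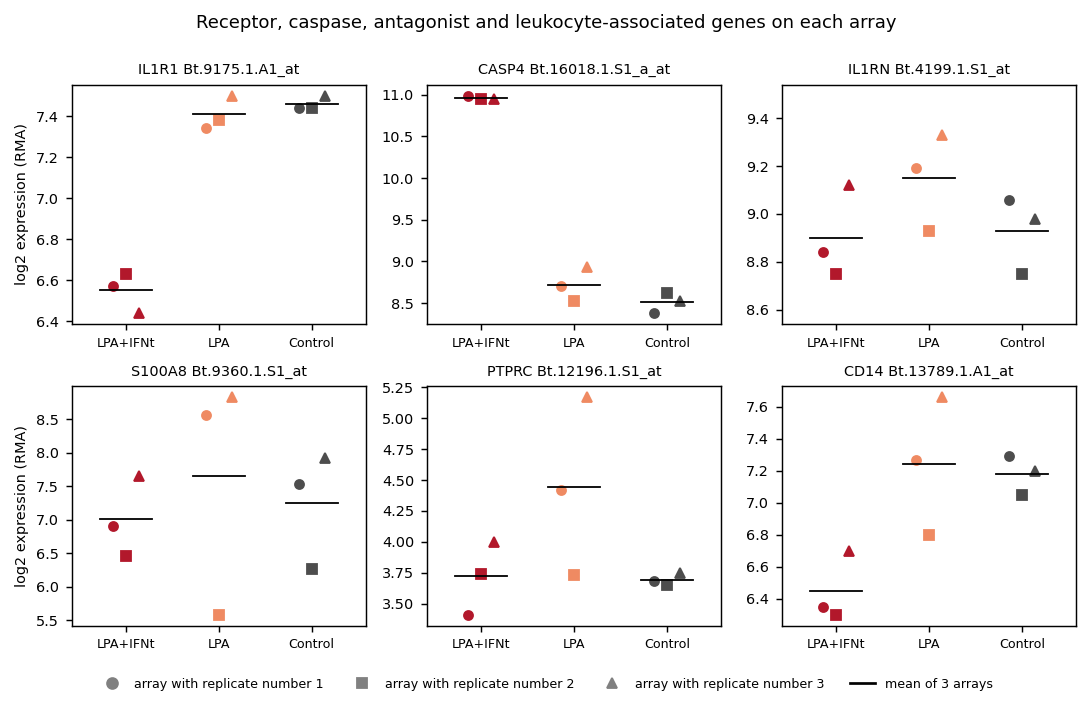
Log2 expression (RMA) on each array of IL1R1, CASP4 (probe set Bt.16018.1.S1_a_at), IL1RN, S100A8, PTPRC and CD14 for LPA+IFNt, LPA and Control, with marker shapes for replicate numbers, a bar at the mean of 3 arrays and a separate y axis per panel that does not start at 0. IL1R1 is lower and CASP4 higher on the 3 LPA+IFNt arrays than on the other 6, and S100A8 is lowest at replicate 2 in every group.

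Among the receptors of these cytokines, IL1R1, the signalling receptor of both interleukin-1 forms, fell with IFNt. It had log2 values of 6.57, 6.63 and 6.44 with LPA+IFNt, 7.34, 7.38 and 7.50 with LPA, and 7.44, 7.44 and 7.50 in Control, with the LPA+IFNt arrays below all others. The log2 fold change was -0.91 against Control (SE 0.06, adjusted p = 0.000101) and -0.86 against LPA (SE 0.06, adjusted p = 0.000142), and both calls held in all 18 alternatives. It was the 1 call among 12 probe sets of 8 measured receptor genes in each IFNt comparison (8.33%), with 0 higher. Of all probe sets 5.34% were called against Control and 6.54% against LPA. In LPA against Control 0 receptor probe sets were called by limma and 0 had an unadjusted p under 0.05 (smallest adjusted p = 0.907, IL1RAP at -0.14, with IL1R2 at -0.04). The accessory chain gene IL1RAP had 8.26, 8.69 and 8.44 with LPA+IFNt, 7.95, 7.86 and 8.17 with LPA, and 8.10, 8.14 and 8.17 in Control by its probe set Bt.22079.1.A1_at. Its LPA+IFNt arrays lay above all others, but neither difference was called (0.33 against Control, adjusted p = 0.202, and 0.47 against LPA, adjusted p = 0.0601). By the other IL1RAP probe sets, Bt.19670.1.A1_at and Bt.24176.1.A1_at, the groups overlapped (0.17 and 0.04 against Control, 0.16 and 0.05 against LPA). Probe sets of IL6R, IL18R1, CSF1R, CSF2RB and IL2RG stayed under the trp level on all arrays.

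Of 10 probe sets for 8 genes of processing enzymes, antagonists and binding proteins, 2 were higher and 0 lower in each IFNt comparison. The shares of all probe sets called were 5.34% against Control and 6.54% against LPA. Both calls were of 1 gene, CASP4, an inflammatory caspase. By Bt.16018.1.S1_a_at it had log2 values of 10.99, 10.95 and 10.95 with LPA+IFNt, 8.71, 8.53 and 8.93 with LPA, and 8.38, 8.62 and 8.53 in Control, a rise of 2.45 against Control (SE 0.10, adjusted p = 6.89e-06) and 2.24 against LPA (SE 0.10, adjusted p = 1.13e-05). CASP1, the classical converting enzyme of IL1B and IL18, was under the trp level on all arrays (2.01 to 2.14). IL1RN, the gene of the interleukin-1 receptor antagonist, had 8.84, 8.75 and 9.12 with LPA+IFNt, 9.19, 8.93 and 9.33 with LPA, and 9.06, 8.75 and 8.98 in Control, and was not called (-0.03 against Control, adjusted p = 0.917). In LPA against Control 0 of the 10 were called by limma and 0 had an unadjusted p under 0.05, with CASP4 at 0.21 (adjusted p = 0.667) and CAPN1 at -0.39 (0.794).

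Signal transducers and feedback inhibitors, 16 probe sets of 11 measured genes, gave 0 calls by limma in each of the 3 comparisons, with 1, 1 and 2 probe sets at an unadjusted p under 0.05 in LPA+IFNt against Control, LPA+IFNt against LPA and LPA against Control. The values nearest the threshold were TRAF6 (0.19, adjusted p = 0.264) and STAT5B (0.16, 0.309) in LPA+IFNt against Control. In LPA+IFNt against LPA they were JAK1 (-0.33, 0.111) and IRAK1 (-0.07, 0.433, by Bt.5221.1.S1_at). In LPA against Control they were TRAF6 (0.20, 0.532) and IRAK4 (0.18, 0.587). The other IRAK1 probe set, Bt.25165.1.S1_at, went the other way in LPA+IFNt against LPA (0.62, adjusted p = 0.531). The group means of STAT5B (2.78, 2.75 and 2.62 in LPA+IFNt, LPA and Control) all lay under the trp level. SOCS3, a feedback inhibitor of the gp130 cytokines, was under the trp level by both of its probe sets, and STAT3 stood at -0.15 and 0.14 in LPA+IFNt against Control by its 2 probe sets (adjusted p = 0.572 and 0.393).

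Other interleukin and haematopoietic cytokine genes were mostly not detected: of 24 probe sets for 19 genes, 2 had a group mean above the trp level, those of IL7 and FLT3LG. IL7, like IL15 a growth factor of lymphocytes, had log2 values of 3.06, 3.51 and 3.24 with LPA+IFNt, 2.61, 2.84 and 2.83 with LPA, and 2.66, 2.75 and 2.84 in Control. The LPA+IFNt arrays lay above the others, and 2 LPA arrays and 1 Control array exceeded the trp level. Since the means of 2.76 with LPA and 2.75 in Control lay under the trp level, IL7 was detected by its LPA+IFNt mean alone and only a bound can be given. With lower values raised to the trp level it was at least 1.36-fold higher than in LPA and at least 1.37-fold higher than in Control. The raised values were not tested. The limma fit to the deposited values called IL7 against LPA (adjusted p = 0.0473) but not against Control (adjusted p = 0.0506, or 0.0167 with the replicate block). The call against LPA was lost in 8 of the 9 omissions of an array, that of LPA+IFNt replicate 1 excepted, with adjusted p up to 0.156. Of the 24 probe sets 0 were called by limma in LPA against Control and 0 had an unadjusted p under 0.05, with IL34 at 0.04 and IL16 at 0.03. Median log2 fold changes of the receptor, processing, transducer and ligand lists were 0.02, 0.05, 0.02 and 0.04 in LPA+IFNt against Control, where the median of all probe sets was 0.018.

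Among markers of the cultured cells, some stromal genes were lower in the IFNt comparisons. Of the stromal probe sets 22.2% were called against Control and 38.9% against LPA, beside 5.34% and 6.54% of all probe sets. The epithelial list (5.26% in each) and the leukocyte list (3.57% in each) did not exceed these background shares. Only 6 of the 28 leukocyte probe sets had a group mean above the trp level, against 18 of 19 epithelial and 15 of 18 stromal. The leukocyte share was thus taken mostly over undetected probe sets and is not comparable with the stromal share. Stromal marker genes had a mean log2 level of 10.49 to 10.52 with LPA+IFNt, 10.70 to 10.92 with LPA and 10.59 to 10.70 in Control, and 4 of their 18 probe sets were lower and 0 higher against Control and 7 of 18 lower against LPA. COL3A1, a fibrillar collagen gene, fell by 0.76 against Control (SE 0.06, adjusted p = 0.000441) by Bt.23318.1.S2_at. The other calls against Control were its second probe set (-0.51), FBN1 (-0.39) and COL1A1 (-0.39). VIM (-0.14), DCN (-0.04), LUM (-0.18), FAP (-0.20) and COL1A2 (-0.21 and -0.19) were lower than in Control without a call. POSTN (0.04), PDGFRA (0.06 by Bt.9423.1.S1_at), PDGFRB (0.05) and TCF21 (0.09) were not called against Control either. Against LPA the calls were both probe sets of COL3A1 (-0.75 and -0.54), both of COL1A2 (-0.25 and -0.33), FBN1 (-0.40), COL1A1 (-0.55) and THY1, a surface antigen of fibroblasts (-0.69, adjusted p = 0.00208). THY1 averaged 6.97 with LPA+IFNt, 7.66 with LPA and 7.11 in Control, and its differences of -0.14 in LPA+IFNt against Control (adjusted p = 0.439) and 0.55 in LPA against Control (adjusted p = 0.0713) were not called. Epithelial marker genes had a mean of 9.77 to 9.91 with LPA+IFNt, 9.78 to 9.86 with LPA and 9.76 to 9.90 in Control, with 1 of 19 probe sets higher against Control (CDH1, 0.21, adjusted p = 0.0112) and 1 lower against LPA (SPINT2, -0.45, adjusted p = 0.00457). SPINT2 averaged 11.32 with LPA+IFNt, 11.77 with LPA and 11.29 in Control (0.49 in LPA against Control, adjusted p = 0.0566). The leukocyte list held 1 call in each IFNt comparison, that of CD53, and the endothelial list none. CD53 averaged 4.01 with LPA+IFNt, 2.86 with LPA and 2.75 in Control, where 2 LPA arrays and 1 Control array exceeded the trp level. With lower values raised to that level it was at least 2.27-fold higher than in Control and at least 2.05-fold higher than in LPA. Its calls came from the limma fit to the deposited values (adjusted p = 0.0252 against Control and 0.0336 against LPA). The part of these shifts in the rises of IL6, IL15 and IL18 was not tested.

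The genes whose values followed the 3 called cytokines most closely were found by the root mean square difference of centred log2 values over the 9 arrays. For IL6 they were LAP3 (0.048), TMEM50A (0.059) and GRN (0.062). For IL15 they were CDADC1 (0.190), ELMO2 (0.208) and CDKN2AIP (0.209), and for IL18 LIPA (0.105), TAP2 (0.110) and RTP3 (0.122). Their direction in the IFNt comparisons was fixed by this choice, so the values that follow are a description. LAP3 was higher by 0.53 in LPA+IFNt against Control and by 0.41 against LPA, CDADC1 by 1.10 and 1.20, and TAP2, a peptide transporter of antigen presentation, by 0.74 and 0.96.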

How the data were processed

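RNA from pooled endometrial co-cultures (100 ng per sample) was amplified, labelled with biotin and hybridised, 1 array per sample. The authors deposited log2 expression values per probe set. Per the submitters' processing notes they used Partek and RMA (versions: not given in the sources used here). The log base is not stated and was read as 2, which RMA normally writes. No build is named, so no coordinates are given, and no sequences were used. From 24128 probe sets, 112 Affymetrix controls were left out. Genes were named from the array's annotation through the RefSeq table (0 symbols changed).

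limma 3.58.1 in R 4.3.3 (lmFit, eBayes, two-sided) was fitted to 24016 probe sets on all 9 arrays with group as the only term. It was tested on simulated data with noise drawn independently for each array, so that test did not cover arrays that deviate together. P-values were Benjamini-Hochberg adjusted over all probe sets, and calls were made under 0.05. Same-numbered arrays of different groups deviated together (r of 0.19 to 0.491 in 9 of 9 pairs, -0.468 to 0.141 in the 18 others), a pairing seen in the data and not stated in the labels, so the replicate number was also fitted as a block. All probe sets of the 10 genes are given. From the receptor, processing, transducer and ligand lists up to 6 called probe sets per comparison, or the 2 with the smallest p, were named. Members and lists were chosen with earlier results of these data known. Marker genes and further genes of the lists (IL1RAP, CASP1, IL1RN, S100A8, STAT3, SOCS3) were named after their values were seen. The number of arrays limits the precision. Alternatives were leaving out each array, other centrings, a filter on dim probe sets, other variance priors, fits to the compared groups alone and averaging the probe sets of a gene.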

Additional observations from a re-analysis of the deposited data

How the results depend on the processing

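With the replicate block, 11 probe sets were called in LPA against Control in place of 17, and 2085 in place of 1282 in LPA+IFNt against Control. In LPA+IFNt against LPA 2320 of all 24016 probe sets were called in place of 1571, and 2276 in place of 1439 for any difference among the groups. Of the 15 cytokine probe sets the block called 0 in LPA against Control, 3 in LPA+IFNt against Control and 4 in LPA+IFNt against LPA (IL1B added). The block changed no other call of a cytokine probe set. LPA against Control gave 37 calls without dim probe sets, 49 with spike-in centring, 51 with centring on the bright spike-ins (chosen after seeing the data), 50 with a trend and robust prior, 28 with probe sets averaged, 1 with the arrays of the 2 groups alone and 0 from unmoderated variances, where 1476 had an unadjusted p under 0.05. Unmoderated variances gave 788, 901 and 783 calls in LPA+IFNt against Control, LPA+IFNt against LPA and any difference, and the arrays of the 2 groups alone gave 1004 in LPA+IFNt against LPA. The cause was not tested.

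Leaving out 1 array at a time gave 0 to 169 calls in LPA against Control, 791 to 1352 in LPA+IFNt against Control, 954 to 2204 in LPA+IFNt against LPA and 911 to 1997 for any difference. Cytokine calls ran from 0 to 0, 2 to 3 and 2 to 7 in the 3 comparisons. With spike-in centring the share of calls that were higher was 56.7% against 46.4% as deposited in LPA+IFNt against Control (37.6% with array medians set equal), and 46.9% against 70.6% in LPA against Control.

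IL15 kept its direction but lost its call with no variance moderation (adjusted p = 0.0794 against Control and 0.0904 against LPA) and, against Control, with the 2 groups alone (0.0501). Signs of uncalled values turned when single arrays were left out. In LPA against Control the ranges were -0.17 to 0.22 for IL15, -0.24 to 0.75 for IL33 Bt.22094.1.A1_at, -0.07 to 0.22 for CSF1 and -0.31 to 0.53 for CSF3. In LPA+IFNt against Control they were -0.21 to 0.12 for IL1B Bt.4856.1.S1_at, -0.24 to 0.31 for IL33 Bt.22094.1.A1_at, -0.14 to 0.10 for IL33 Bt.22094.2.S1_at and -0.01 to 0.09 for CSF2, and in LPA+IFNt against LPA -0.41 to 0.02 for IL1A Bt.191.1.S1_at, -0.14 to 0.16 for IL1A Bt.191.1.S2_at and -0.75 to 0.23 for IL33 Bt.22094.1.A1_at. Spike-in centring turned IL33 in LPA+IFNt against Control (0.04, or 0.03 with the bright spike-ins, by Bt.22094.1.A1_at and 0.01 by Bt.22094.2.S1_at), and averaging the probe sets of IL1A gave -0.08 in LPA+IFNt against LPA. Over 18 alternatives for 44 differences (the detected cytokine probe sets in 3 comparisons, with IL1R1, CASP4 and IL7 in the IFNt comparisons), 731 values kept direction and side of the threshold, 26 lost a call, 10 gained one and 25 changed sign. The comparisons with IFNt rest on 3 pooled arrays a group, and probe sets under the trp level set no limit on the expression of LIF.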
